A study of Homo sapiens with 12 samples.

Results

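The integrin subunits described here are 10 genes of the deposited count table, 5 alpha subunits (ITGA2, ITGA3, ITGA5, ITGA6 and ITGAV) and 5 beta subunits (ITGB1, ITGB3, ITGB4, ITGB5 and ITGB8). They were chosen by gene symbol, by a rule that uses no measured value, though with earlier results of these data known, and all 10 were found among the 56269 genes of the table. Their transcripts were followed in 12 RNA-seq libraries of HEYA8, an established human ovarian cancer cell line, with 3 libraries in each of 4 groups. The groups address whether the glycosaminoglycan chains of betaglycan, the TGF-β coreceptor encoded by TGFBR3, change gene expression in cells labelled as in a resting state. The constructs were delivered in a lentiviral vector that also carries dTomato, infected cells were sorted for that marker, and all groups were kept in RPMI-1640 with 10% FBS (fetal bovine serum).

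The first group carried the control vector. The second group, ∆GAG-BG, expressed betaglycan with serines 534 and 545, the attachment sites of the chains, both changed to alanine. The third group, S534A (called CS-BG, for chondroitin sulfate), had serine 534 changed, and the fourth, S545A (called HS-BG, for heparan sulfate), had serine 545 changed. The labels name no knockout of the TGFBR3 gene of the cells themselves, and no group with unmutated betaglycan was analysed here. The labels do not say whether the 3 libraries of a group came from separate cultures, so the p-values measure the spread between these libraries, which may be technical.

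Integrins are transmembrane receptors made of 1 alpha and 1 beta subunit, and they join the extracellular matrix to the actin cytoskeleton. The pairing sets the ligand: α2β1 binds collagen, α3β1, α6β1 and α6β4 bind laminins, α5β1 binds fibronectin, and the αv integrins bind matrix proteins with an RGD motif. The integrins αvβ6 and αvβ8 also bind the latent form of TGF-β and release the active cytokine, and in ovarian cancer integrins serve in attachment to the mesothelial lining of the peritoneum.

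Counts were scaled to CPM (counts per 1000000 counts of the library) by TMM, a correction for differences in library composition. Total counts lay between 16410001 and 29504297 in the 12 libraries. A gene with 0 counts could therefore still be present at up to 0.182 CPM (3 counts) in the shallowest of them. TGFBR3, the gene of the constructs, was at 413 to 574 CPM in the S534A and S545A libraries. In the ∆GAG-BG group it was 259 CPM in library 1 but 20.3 and 21.4 CPM in libraries 2 and 3, and in the control vector group it was 15.9 CPM in library 1 but 259 CPM in both libraries 2 and 3. TGFBR3 thus went against the label in libraries 2 and 3 of both groups. The libraries labelled ∆GAG-BG and control vector were used as labelled, and for ITGA3, ITGA6, ITGB3, ITGB4, ITGB8 and the pathway genes named with a call against either group, values from a fit without those 4 libraries are also given. That fit holds 1 library in each of the 2 groups, which is assumed to vary like the other groups. In every group but S534A, libraries 2 and 3 were also very close to each other. Their counts differed with a chi-square of 1.40 to 1.95 per degree of freedom, whereas the other 9 pairs within a group gave 16.5 to 74.8. The third S545A library carries a title reading S545S but a genotype label of S545A.

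The markers of the labelled cell type were present in part. PAX8, a transcription factor of the Müllerian lineage, was at 193 to 295 CPM, and the epithelial keratins KRT7, KRT8 and KRT18 were at 451 to 1139 CPM. EPCAM was at 0.367 to 1.76 CPM, WT1 at 3.41 to 8.37 CPM, and MUC16, which encodes CA-125, held 0 counts in every library. The summed level of 3 leukocyte markers was 0 to 0.188 CPM and that of 4 fibroblast markers 0.834 to 5.04 CPM, with CD3E, DCN and LUM at 0 throughout. Of the platelet markers, which matter here because platelets carry ITGB3, PF4 was at 0 in every library and the 3 markers summed to 0.587 to 1.15 CPM. The endothelial list summed to 175 to 448 CPM, nearly all of it CDH5 at 168 to 431 CPM, while PECAM1 stayed between 0.205 and 0.767 CPM.

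All 10 integrin genes had the same span and strand in the count table as in GENCODE release 29 on GRCh38. Among the alpha subunits, ITGA2 lies on chromosome 5 from 52989326 to 53094779 and ITGA3 on chromosome 17 from 50055968 to 50090481, both on the plus strand. ITGA5 lies on chromosome 12 from 54395261 to 54419460 on the minus strand. ITGA6 and ITGAV are both on the plus strand of chromosome 2, at 172427354 to 172506282 and at 186590065 to 186680901. Among the beta subunits, ITGB1 lies on chromosome 10 from 32900319 to 33005792 and ITGB5 on chromosome 3 from 124761948 to 124901418, both on the minus strand. ITGB3 and ITGB4 are on the plus strand of chromosome 17, at 47253846 to 47311816 and at 75721328 to 75757818, and ITGB8 is on the plus strand of chromosome 7 from 20330702 to 20415754. Values are sums over all annotated exons of a gene, coding and untranslated.

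ITGB3 shares 2266 of its 4394 exon bases (51.6%) with RP11-290H9.2, an annotated gene on the same strand that held 0 counts in all 12 libraries. Reads in bases shared by 2 genes are left out under the default setting of featureCounts, and the setting used is not stated, so the ITGB3 level may be understated. The other members shared at most 2.66% of their exon bases with any 1 gene, in each case on the opposite strand.

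Promoter sequences were matched for 7 of the 10 members in RefSeq (GRCh38.p14): ITGA2, ITGA5, ITGA6, ITGAV, ITGB1, ITGB5 and ITGB8. The sequences ahead of ITGA2 and ITGB5 are shown because these were the abundant subunits whose transcripts varied most between libraries, in opposite directions. The capitals mark the GC box, GGGCGG or CCGCCC, the core element bound by Sp1-family factors. The first runs at chr5:52989102-52989325 on the plus strand (224 bases, ending before the annotated exon), and the second at chr3:124901419-124901668 on the minus strand (250 bases).
ITGA2: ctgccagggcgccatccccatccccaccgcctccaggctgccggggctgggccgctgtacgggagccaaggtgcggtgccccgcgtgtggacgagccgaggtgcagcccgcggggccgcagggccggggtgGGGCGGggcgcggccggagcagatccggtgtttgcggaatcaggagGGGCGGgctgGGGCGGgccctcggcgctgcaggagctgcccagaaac
ITGB5: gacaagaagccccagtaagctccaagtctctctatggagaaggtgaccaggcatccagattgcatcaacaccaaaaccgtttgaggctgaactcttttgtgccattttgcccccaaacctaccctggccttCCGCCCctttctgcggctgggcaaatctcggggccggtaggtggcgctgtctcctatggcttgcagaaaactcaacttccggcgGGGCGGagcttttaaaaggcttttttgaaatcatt

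The G and C content was 77.2% in the ITGA2 stretch and 52.8% in the ITGB5 stretch. Over the 250 bases ahead of the RefSeq start, searched on both strands, GC boxes were found in 5 of the 7 members with a promoter and in 42.6% of 35116 promoters. The SMAD box, CAGAC or GTCTG, the short element bound by the SMAD factors of the TGF-β pathway, was found in 4 of the 7 members (ITGA5, ITGAV, ITGB1 and ITGB8) and in 38% of all promoters. It was in neither of the sequences above. The AP-1 element TGANTCA was in 0 of the 7 members and in 6.57% of all promoters. These matches describe letters in a window and not bound sites.

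The subunits fell into separate sets by transcript level, with overlap between neighbours within a set. On the RPKM scale (CPM per 1000 exon bases), ITGB1, the common partner of most alpha subunits, had the highest median level over the 12 libraries, at 172.6 RPKM (range 169 to 189). The laminin-binding subunits followed, ITGA3 at a median of 153.8 RPKM (127 to 203) and ITGA6 at 117.6 RPKM (101 to 142). The ranges of ITGB1 and ITGA3 overlapped, and so did those of ITGA3 and ITGA6.

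A second set of 4 subunits lay lower, and ITGA6 was above ITGB5, the highest of them, in all 12 libraries without overlap. ITGB5 had a median level of 38.7 RPKM (23.4 to 44.7), ITGAV of 27.4 RPKM (23.7 to 29.2), ITGA5 of 22.4 RPKM (20.7 to 27.3) and ITGA2 of 19.3 RPKM (16.7 to 28.8). Each of these overlapped with its neighbour in the order. ITGB3 followed at a median of 4.06 RPKM (3.42 to 4.75), ITGB4, the hemidesmosome subunit that pairs with ITGA6, at 0.177 RPKM (0.0740 to 0.323) and ITGB8 at 0.0229 RPKM (0.0117 to 0.0566). These last steps, from ITGA2 to ITGB3, ITGB3 to ITGB4 and ITGB4 to ITGB8, held in 12 of 12 libraries without overlap.

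The other 16 integrin genes looked up were all below ITGB3 in median RPKM. The highest were ITGAE (median 1.70 RPKM), ITGA1 (1.47 RPKM) and ITGB2 (1.19 RPKM), and ITGA8 held 0 counts in every library. ITGB6, the partner of ITGAV in αvβ6, had a median of 0.0766 RPKM and 4 to 38 counts per library. ITGB6 and ITGB8, the beta subunits of αvβ6 and αvβ8, were thus both at low counts. Group differences in ITGB8, with 4 to 19 counts, were measurable only with wide error.

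**Figure D1:**
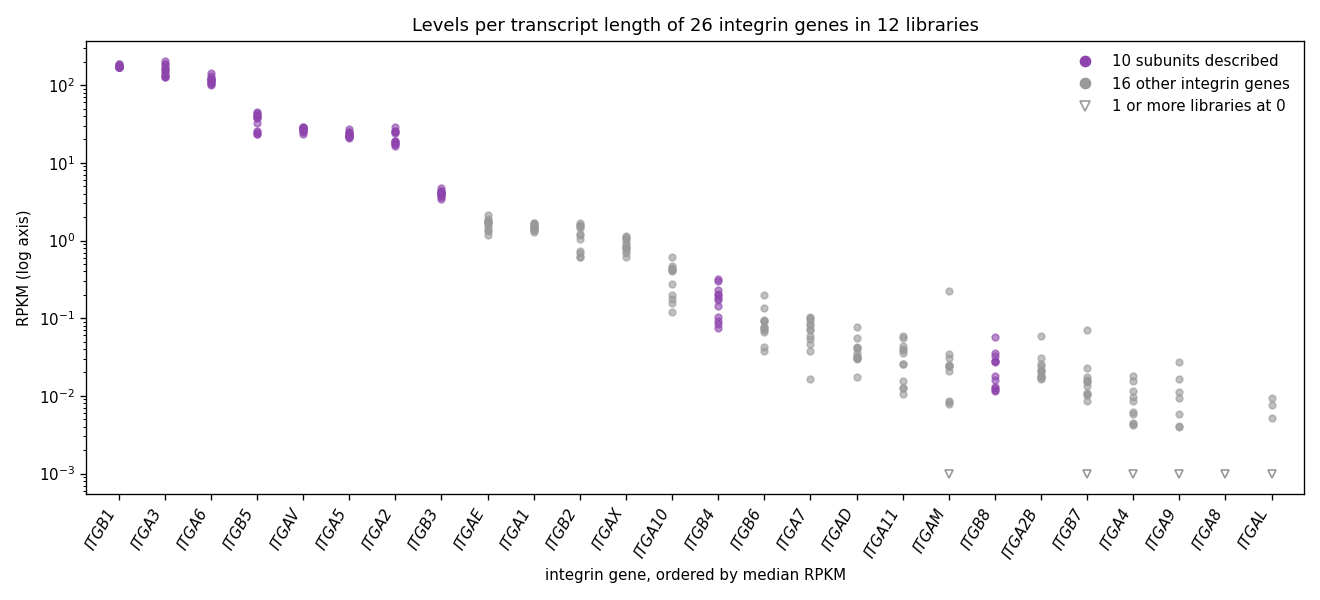
RPKM on a log axis for 26 integrin genes, ordered by their median over 12 libraries, with 1 point per library. The 10 subunits described are in purple and the 16 other integrin genes in grey, and an open triangle at the bottom of the axis marks a gene with 1 or more libraries at 0. The 8 highest genes are all subunits described here, from ITGB1 at a median of 172.6 RPKM to ITGB3 at 4.06 RPKM.

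Differences between groups were tested by quasi-likelihood in edgeR, with the 12 libraries in a single model and with Benjamini-Hochberg adjustment over the 16069 genes that passed the filter on low counts. All 10 members passed that filter. In none of the 6 comparisons did a member reach an adjusted p under 0.05 by edgeR, DESeq2 or limma-voom, and 0% of all genes reached it in each of the 6 by edgeR. The test for any difference among the 4 groups gave 0 members at an adjusted p under 0.05 (0.00622% of all genes) and 0 of 10 at an unadjusted p under 0.05 (1.55% of all genes). The lowest unadjusted p of a member in that test was 0.0785, for ITGB3, and the highest was 0.955.

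At an unadjusted p under 0.05, the edgeR counts were 1 of 10 members in S534A against ∆GAG-BG (2.99% of all genes) and 0 of 10 in the other 5 comparisons. The background was 0.865% of all genes in ∆GAG-BG against control vector, 1.1% in S545A against ∆GAG-BG and 3.45% in S534A against control vector. For S545A it was 1.05% against control vector and 4.78% against S534A. DESeq2 and limma-voom gave the same counts of members, with ITGB3 as the single member in each. With 1 of 10 members and a background of this size, the count does not set the members apart.

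Group ranges without overlap were equally few. In ∆GAG-BG against control vector 1 member did not overlap (4.87% of all genes), and the same count was found in S534A against ∆GAG-BG (5.66% of all genes) and in S545A against ∆GAG-BG (5.05% of all genes). That member was ITGB3 each time, and these 3 comparisons share the ∆GAG-BG libraries. There were 0 such members in S534A against control vector (7.65% of all genes). For S545A there were also 0, against control vector (8.82% of all genes) as well as S534A (10.1% of all genes). The median log2 fold change of the 10 members ran from -0.05 in S534A against ∆GAG-BG to 0.03 in S534A against control vector, beside -0.01 to 0.01 over all genes tested in the 6 comparisons.

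**Figure D2:**
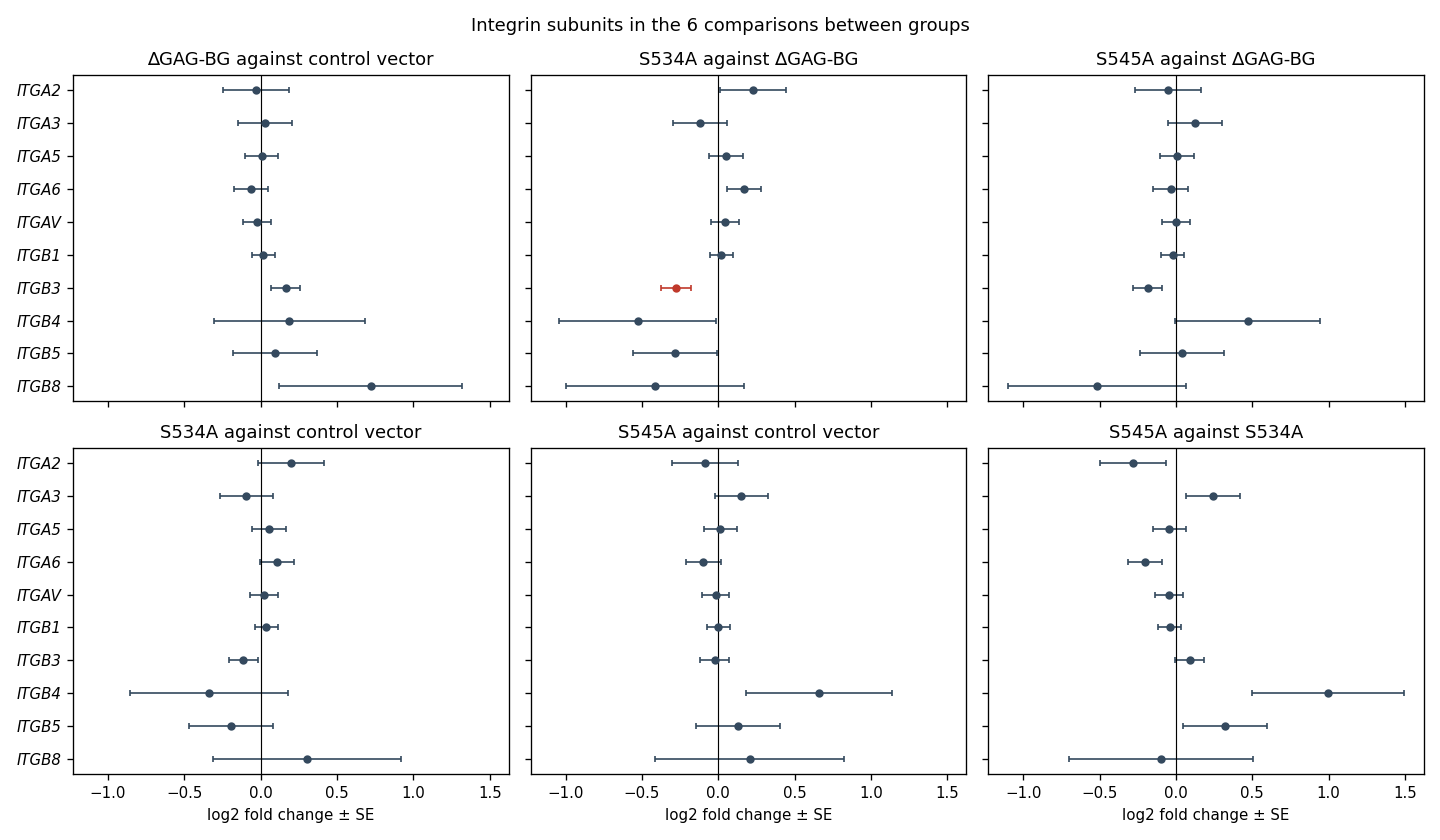
Log2 fold changes with their standard errors for the 10 integrin subunits in the 6 comparisons, from edgeR on 3 libraries per group. The red point is the single difference at an unadjusted p under 0.05, ITGB3 in S534A against ∆GAG-BG at -0.28. The widest bars belong to ITGB4 and ITGB8, which had 4 to 64 counts per library.

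ITGB3, the subunit that joins ITGAV in the vitronectin receptor αvβ3, was the member with the clearest pattern by group. Its level was 19.0, 19.2 and 20.9 CPM in ∆GAG-BG libraries 1, 2 and 3 and 17.8, 18.3 and 16.7 CPM in the control vector libraries. In S534A it was 15.9, 15.0 and 17.9 CPM and in S545A 17.3, 17.9 and 16.8 CPM. All 3 ∆GAG-BG libraries lay above all 9 others, and the other 3 groups overlapped with each other.

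The highest and the lowest group mean of ITGB3 differed 1.21-fold. S534A was lower than ∆GAG-BG by a log2 fold change of -0.28 (SE 0.096, 95% interval -0.49 to -0.07), with an unadjusted p of 0.014 and an adjusted p of 0.89 by edgeR. Group means were 16.3 ± 1.49 CPM in S534A and 19.7 ± 1.03 CPM in ∆GAG-BG (SD, n = 3). The two-sided exact permutation p was 0.1, the smallest that 3 against 3 libraries can give. The gene had 296 to 515 counts per library, and the exact Poisson interval of the highest library, ∆GAG-BG 3, was 19.0 to 22.9 CPM, while that of S534A 2, the lowest, was 13.7 to 16.5 CPM. Such intervals cover counting error only.

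Against control vector (17.6 ± 0.824 CPM), ∆GAG-BG was at a log2 fold change of 0.16 for ITGB3 (SE 0.096, unadjusted p = 0.114 and adjusted p = 1 by edgeR). S545A (17.3 ± 0.520 CPM) was at -0.19 against ∆GAG-BG (SE 0.096, unadjusted p = 0.0763 and adjusted p = 1 by edgeR). S534A against control vector gave -0.11 (SE 0.096, unadjusted p = 0.262 by edgeR). Of these values for ITGB3, none is past the threshold, and both the ∆GAG-BG and the control vector group rest on libraries whose TGFBR3 levels were unlike. Without libraries 2 and 3 of both groups, the same 3 differences were 0.08, -0.14 and -0.15 (unadjusted p = 0.691, 0.406 and 0.374 by edgeR). The last of the 3 was -0.06 without S534A library 2 and -0.19 without S534A library 3.

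The unadjusted call for ITGB3 in S534A against ∆GAG-BG was lost in 5 of 16 alternatives, though the direction was kept in all. The call was lost without ∆GAG-BG library 3 (-0.23, unadjusted p = 0.0592 by edgeR) and with the close libraries 2 and 3 summed in each group but S534A. With libraries 2 and 3 of ∆GAG-BG and control vector left out it was also lost, at a value of -0.23. In the ∆GAG-BG group, libraries 1, 2 and 3 had 259, 20.3 and 21.4 CPM of TGFBR3 beside 19.0, 19.2 and 20.9 CPM of ITGB3. In the control vector group they had 15.9, 259 and 259 CPM of TGFBR3 beside 17.8, 18.3 and 16.7 CPM of ITGB3, and the part of the TGFBR3 level in ITGB3 was not tested. ITGB3 was also the exception to the spread of the other members: its largest fold within a group (1.19) was below the fold between its highest and lowest group mean (1.21). In the other 9 members the spread within a group was the larger. The share of the variance of log2(CPM + 1) that lay between groups was 67.4% for ITGB3, with a median of 15.2% over the 10 members and 20.8% over the genes tested.

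ITGB5, the other common partner of ITGAV and part of a second vitronectin receptor, spanned the widest range of the abundant subunits, 1.91-fold over the 12 libraries. It was 152, 263 and 253 CPM in the control vector libraries, 213, 246 and 253 CPM in ∆GAG-BG, 151, 165 and 270 CPM in S534A and 163, 288 and 281 CPM in S545A. Library 1 of every group and library 2 of S534A were low, at 151 to 213 CPM, and the other 7 libraries were high, at 246 to 288 CPM. Group ranges overlapped in all comparisons, and the largest difference, S545A against S534A, was a log2 fold change of 0.32 (SE 0.28, unadjusted p = 0.263 by edgeR).

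ITGAV itself, the alpha subunit shared by both, varied little. Its values were 207, 228 and 232 CPM in control vector, 194, 228 and 235 CPM in ∆GAG-BG, 230, 209 and 240 CPM in S534A and 216, 223 and 220 CPM in S545A. The lowest value was that of ∆GAG-BG library 1, and all groups overlapped. The ratio of ITGB5 to ITGAV in RPKM was 0.931, 1.47 and 1.39 in control vector and 0.835, 1.00 and 1.43 in S534A. The low values were in the libraries that were low in ITGB5. In S545A the ratio was 0.961, 1.65 and 1.63, and in ∆GAG-BG it was 1.40, 1.38 and 1.37, where the 3 libraries were alike.

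**Figure D3:**
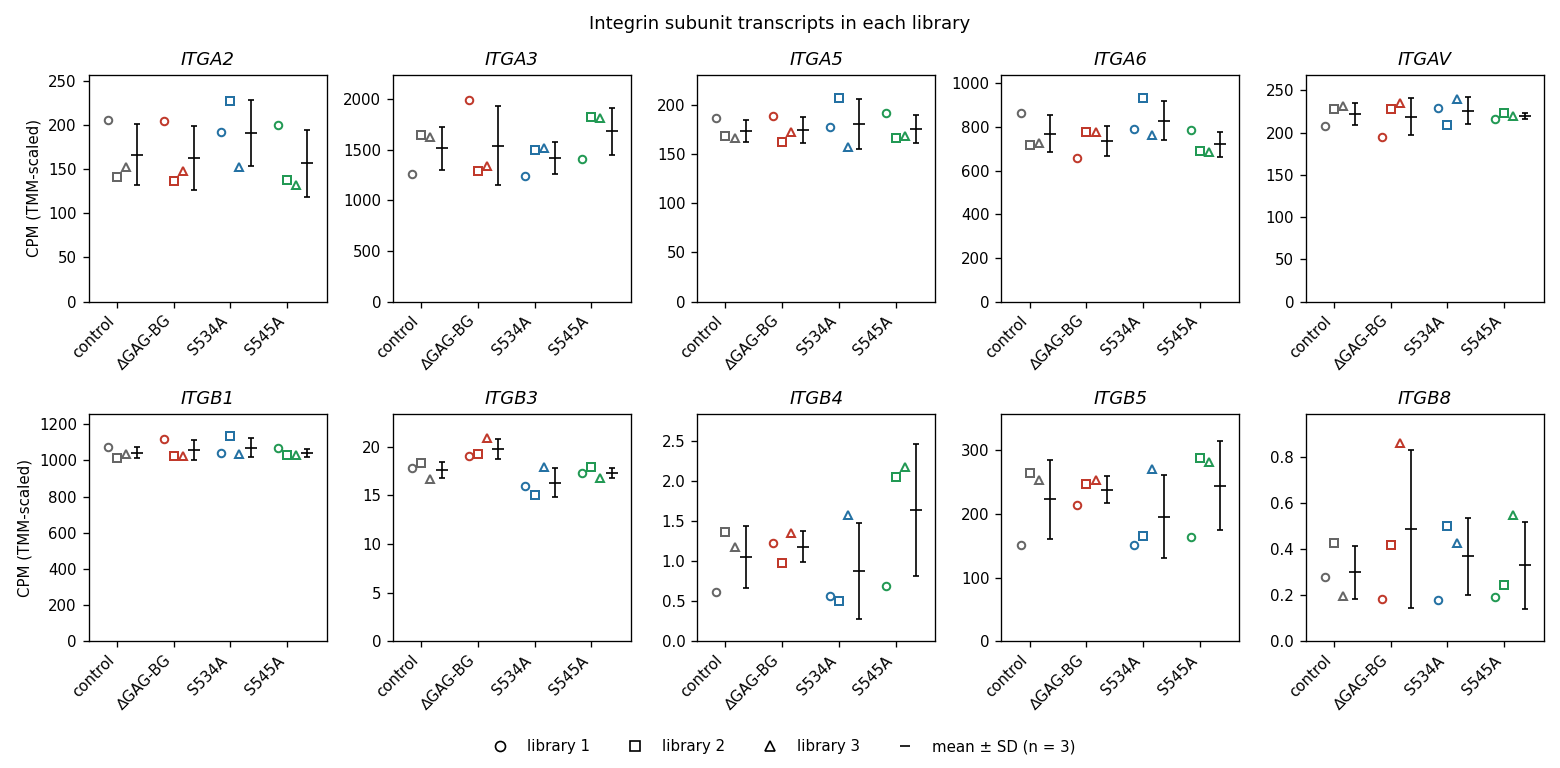
TMM-scaled CPM of the 10 integrin subunits in each of the 12 libraries, with axes from 0. Open symbols are libraries 1, 2 and 3 of a group and the black bar is the mean with SD (n = 3). ITGB3 is highest in the 3 ∆GAG-BG libraries (19.0 to 20.9 CPM). For ITGA2, ITGA5, ITGB1 and ITGB5, library 1 of every group and library 2 of S534A do not overlap with the other 7. The gap for ITGB1 is narrow, 1044 against 1038 CPM. This division was seen in the values themselves, and its share over all genes was not counted.

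ITGA2, the collagen-binding subunit of α2β1, ran opposite to ITGB5 in the same libraries. It was 206, 142 and 152 CPM in control vector, 204, 137 and 147 CPM in ∆GAG-BG, 192, 227 and 153 CPM in S534A and 200, 138 and 132 CPM in S545A. Library 1 of every group and library 2 of S534A were at 192 to 227 CPM and the other 7 libraries at 132 to 153 CPM. The groups overlapped, with unadjusted p from 0.215 to 0.884 by edgeR over the 6 comparisons.

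ITGA5, the fibronectin-binding subunit, divided the libraries in the same way over a narrower range. It was 186, 168 and 167 CPM in control vector, 189, 162 and 172 CPM in ∆GAG-BG, 177, 207 and 157 CPM in S534A and 191, 166 and 168 CPM in S545A. The same 5 libraries held 177 to 207 CPM and the other 7 held 157 to 172 CPM. ITGB1 also did so, at 1044 to 1134 CPM and 1016 to 1038 CPM, and its whole range over 12 libraries was 1.12-fold, the narrowest of the 10 members.

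The labels give no batch that would divide the libraries in this way, and the division was seen in the values themselves, so these libraries were not averaged or tested against each other. Total counts overlapped, at 22601056 to 29504297 in the 5 libraries and 16410001 to 29267436 in the other 7. The other 6 members overlapped between them. The share of all genes that divide in this way was not counted, so the division cannot be read as a trait of the members. Over the genes tested, library 1 of S534A, S545A and control vector differed from each other by a chi-square of 3.87 to 9.02 per degree of freedom. Library 1 of ∆GAG-BG was far from them, at 48.0 to 70.0. S534A library 2 was far from every other library, at 61.3 to 119.9. What the 5 libraries had in common was not tested.

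ITGB1 was 1076, 1016 and 1038 CPM in control vector, 1121, 1023 and 1027 CPM in ∆GAG-BG, 1044, 1134 and 1037 CPM in S534A and 1068, 1030 and 1031 CPM in S545A. Every group overlapped with every other. The intervals of its group differences were the narrowest of the members, with a standard error of 0.075 on the log2 scale in each comparison. The summed RPKM of the 5 alpha members was 1.86 to 2.09 times the RPKM of ITGB1 in all 12 libraries.

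ITGA3, a laminin receptor subunit with ITGB1, was 1265, 1650 and 1624 CPM in control vector and 1995, 1288 and 1342 CPM in ∆GAG-BG. It was 1241, 1498 and 1518 CPM in S534A and 1412, 1821 and 1810 CPM in S545A. The highest value was that of ∆GAG-BG library 1, which also had the highest level of HSPA5, a chaperone of the endoplasmic reticulum, at 11852 CPM against 287 to 3902 CPM in the other 11 libraries. The part of that library's state in the ITGA3 value was not tested. S545A against control vector gave a log2 fold change of 0.15 (SE 0.18, unadjusted p = 0.402 and adjusted p = 1 by edgeR), with overlap. That ITGA3 value moved to between 0.04, without control vector library 1, and 0.27, without S545A library 1, when 1 library was left out. It was also 1.5 or more times smaller without S545A library 2 (0.09) or 3 (0.10), and it was 0.39 (unadjusted p = 0.0837 by edgeR) without libraries 2 and 3 of ∆GAG-BG and control vector.

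ITGA6, which pairs with ITGB1 or ITGB4, was 865, 716 and 727 CPM in control vector, 658, 775 and 777 CPM in ∆GAG-BG, 792, 930 and 762 CPM in S534A and 785, 691 and 683 CPM in S545A. The lowest value was that of ∆GAG-BG library 1, where ITGA3 was highest. Between S545A (719 ± 56.5 CPM) and S534A (828 ± 89.8 CPM, SD, n = 3) the log2 fold change was -0.20 (SE 0.11, unadjusted p = 0.098 and adjusted p = 0.702 by edgeR), with overlap. Without S534A library 2 it was -0.11 (unadjusted p = 0.347 by edgeR). S534A against control vector gave 0.11 (SE 0.11, unadjusted p = 0.367 by edgeR). This ITGA6 value was 0.01 without S534A library 2, 0.06, 0.07 and 0.20 without control vector libraries 2, 3 and 1, and 0.16 without S534A library 3. It was -0.08 without libraries 2 and 3 of ∆GAG-BG and control vector. The ratio of ITGA3 to ITGA6 in RPKM ran from 0.975 in control vector library 1 to 2.02 in ∆GAG-BG library 1.

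ITGB4 was detected at 15 to 64 counts per library. It was 0.622, 1.37 and 1.17 CPM in control vector, 1.22, 0.975 and 1.35 CPM in ∆GAG-BG, 0.568, 0.500 and 1.58 CPM in S534A and 0.697, 2.06 and 2.18 CPM in S545A. Libraries 2 and 3 of S545A were the highest, but library 1 of S545A lay below the third library of S534A. S545A against S534A gave a log2 fold change of 1.00 (SE 0.50, 95% interval -0.08 to 2.08, unadjusted p = 0.0676 and adjusted p = 0.702 by edgeR).

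The value of ITGB4 in S545A against S534A depended on single libraries, and counting error was large. Without S534A library 3 it was 1.61 (unadjusted p = 0.00663, adjusted p = 0.305 by edgeR), and without S545A library 1 it was 1.37 (unadjusted p = 0.0095, adjusted p = 0.415 by edgeR). With the replicate number as a block it was 0.94 (unadjusted p = 0.0429 by edgeR). Against control vector, S545A gave 0.66 for ITGB4 (SE 0.48, unadjusted p = 0.194 by edgeR), and against ∆GAG-BG 0.47 (SE 0.48, unadjusted p = 0.344 by edgeR). Without S545A library 1, the difference from control vector was 1.03 (unadjusted p = 0.0338, adjusted p = 0.971 by edgeR) and that from ∆GAG-BG 0.85 (unadjusted p = 0.0722 by edgeR). The latter was 0.30 without S545A library 2 and 0.19 without S545A library 3, and the former was 0.37 both without control vector library 1 and without S545A library 3. The fit without libraries 2 and 3 of ∆GAG-BG and control vector gave 1.37 against control vector (unadjusted p = 0.14 by edgeR) and 0.42 against ∆GAG-BG (unadjusted p = 0.604 by edgeR).

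ITGB8 had 4 to 19 counts per library, and its values were 0.276, 0.424 and 0.196 CPM in control vector and 0.181, 0.418 and 0.857 CPM in ∆GAG-BG. In S534A it was 0.178, 0.500 and 0.424 CPM and in S545A 0.194, 0.245 and 0.546 CPM. The highest value, ∆GAG-BG library 3, rested on 19 counts, with an exact Poisson interval of 0.516 to 1.34 CPM. ∆GAG-BG against control vector gave a log2 fold change of 0.72 (SE 0.60, 95% interval -0.58 to 2.02, unadjusted p = 0.251 by edgeR), so a difference was not detectable at this depth. Without ∆GAG-BG library 3 it was 0.02, and without ∆GAG-BG library 1 it was 1.10. With libraries 2 and 3 of both groups left out, the sign turned (-0.61).

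The other genes of the pathway were taken from lists written by hand: the other integrin genes, activators and inactivators, the adhesion complex, membrane and hemidesmosome partners, and ligands. None of the 58 genes tested from them reached an adjusted p under 0.05 by edgeR in any comparison. At an unadjusted p under 0.05, the other alpha subunits had 1 of 6 tested genes in S545A against S534A, the activators and inactivators 1 of 10 in each of S534A against ∆GAG-BG and S534A against control vector, and the other beta subunits 0 of 2 throughout. Over all genes these shares were 4.78% in S545A against S534A, 2.99% in S534A against ∆GAG-BG and 3.45% in S534A against control vector. Beside the same shares, the adhesion complex had 2 of 17 in S534A against ∆GAG-BG, 1 higher and 1 lower, and 1 of 17 higher in S534A against control vector. The 7 membrane and hemidesmosome partners had 0 in all 6 comparisons.

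The ligands had 4 of 16 tested genes in S534A against ∆GAG-BG (2 higher and 2 lower, beside 2.99% of all genes) and 3 of 16, all lower, in S545A against ∆GAG-BG (1.1% of all genes). They had 1 of 16, lower, in S545A against S534A (4.78% of all genes) and 0 of 16 in the other 3 comparisons. No test of a list was made. The median log2 fold change of the ligands was -0.11 in S534A against ∆GAG-BG, beside 0.00 over all genes tested.

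FN1, which encodes fibronectin, the ligand of α5β1 and of the αv integrins, was 1411, 829 and 896 CPM in ∆GAG-BG and 1034, 434 and 437 CPM in control vector. It was 493, 321 and 430 CPM in S534A and 651, 493 and 487 CPM in S545A. All ∆GAG-BG libraries lay above all S534A and S545A libraries, whereas control vector overlapped with each group. Library 1 was the highest of its group in every group. S534A was at a log2 fold change of -1.33 against ∆GAG-BG (SE 0.33, unadjusted p = 0.002 and adjusted p = 0.89 by edgeR), and S545A at -0.94 (SE 0.33, unadjusted p = 0.0156 and adjusted p = 1 by edgeR). Without ∆GAG-BG library 1, FN1 in S545A was at -0.66 (unadjusted p = 0.0806 by edgeR). Without libraries 2 and 3 of ∆GAG-BG and control vector, which leaves ∆GAG-BG library 1 alone, the differences were -1.77 (adjusted p = 0.0781 by edgeR) and -1.38 (adjusted p = 0.299 by edgeR). Its receptor subunit ITGA5 gave 0.05 and 0.01 in the same comparisons (SE 0.11 in both).

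LTBP1, a latent TGF-β binding protein of the matrix, also had its highest value in ∆GAG-BG, which was at 29.3, 19.3 and 18.3 CPM. It was 25.4, 15.1 and 14.8 CPM in control vector, 13.6, 14.2 and 11.5 CPM in S534A and 17.4, 9.06 and 9.80 CPM in S545A. The ∆GAG-BG libraries lay above those of S534A and S545A without overlap, but control vector library 1 lay above ∆GAG-BG libraries 2 and 3. Library 1 was the highest of its group in every group but S534A. S545A was at a log2 fold change of -0.88 against ∆GAG-BG (SE 0.29, unadjusted p = 0.01 and adjusted p = 1 by edgeR) and S534A at -0.76 (SE 0.29, unadjusted p = 0.0213 by edgeR). Without ∆GAG-BG library 1 these were -0.63 (unadjusted p = 0.0549 by edgeR) and -0.51 (unadjusted p = 0.11 by edgeR), and without S534A library 3 the second was -0.67 (unadjusted p = 0.0609 by edgeR). The fit without libraries 2 and 3 of ∆GAG-BG and control vector gave -1.28 (adjusted p = 0.588 by edgeR) and -1.16 (adjusted p = 0.289 by edgeR).

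COL4A1, a chain of the basement membrane collagen bound by α1β1 and α2β1, was 345, 588 and 314 CPM in S534A and 308, 297 and 308 CPM in ∆GAG-BG. It was 353, 303 and 301 CPM in control vector and 336, 320.2 and 312 CPM in S545A. Library 2 of S534A was the highest of the 12, and S534A lay above ∆GAG-BG without overlap. S534A was at a log2 fold change of 0.45 against ∆GAG-BG (SE 0.19, unadjusted p = 0.0319 and adjusted p = 0.89 by edgeR), and at 0.12 (unadjusted p = 0.216 by edgeR) without S534A library 2. The call was lost in 8 of 16 alternatives, among them each ∆GAG-BG library left out (0.43 to 0.46) and libraries 2 and 3 of ∆GAG-BG and control vector left out (0.43, unadjusted p = 0.223 by edgeR). ITGA2, whose product binds this collagen, gave 0.23 (SE 0.22, unadjusted p = 0.31 by edgeR) in the same comparison.

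**Figure D4:**
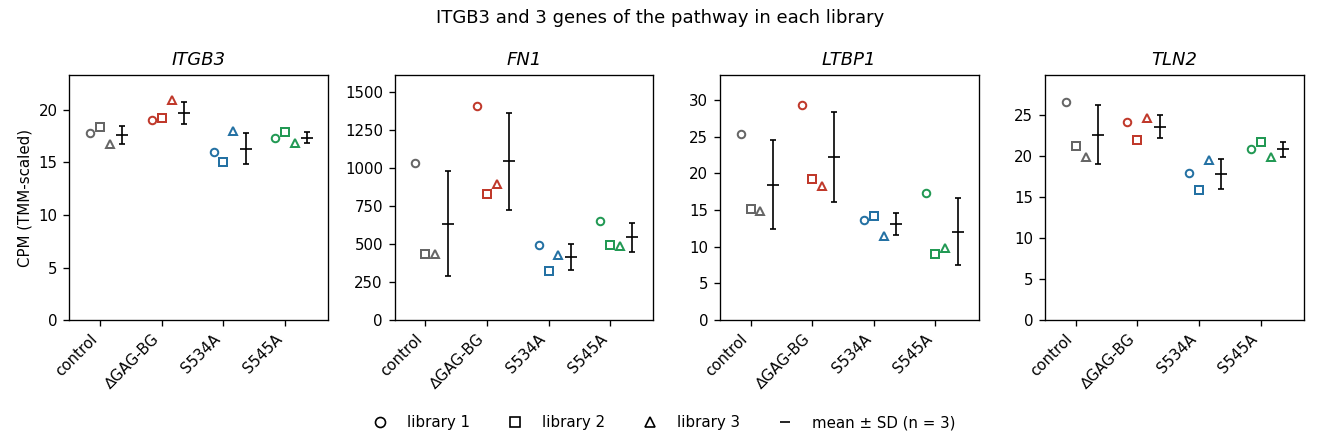
TMM-scaled CPM of ITGB3 and of 3 pathway genes in each library, with axes from 0, open symbols for libraries 1, 2 and 3 and a black bar for the mean with SD (n = 3). FN1 and LTBP1 are highest in library 1 of ∆GAG-BG (1411 and 29.3 CPM), and TLN2 is lowest in S534A (15.9 to 19.5 CPM).

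Among the activators, TLN2, a talin that links integrin tails to actin, was 17.9, 15.9 and 19.5 CPM in S534A, below every library of the other 3 groups. It was 26.6, 21.2 and 19.9 CPM in control vector, 24.1, 21.9 and 24.5 CPM in ∆GAG-BG and 20.9, 21.7 and 19.8 CPM in S545A. Its log2 fold change was -0.41 in S534A against ∆GAG-BG (SE 0.12, unadjusted p = 0.00585 and adjusted p = 0.89 by edgeR), under 0.05 in 16 of 16 alternatives. Against control vector it was -0.35 (SE 0.12, unadjusted p = 0.0144 by edgeR), and -0.21 (unadjusted p = 0.088 by edgeR) without control vector library 1 and -0.28 (unadjusted p = 0.0543 by edgeR) without S534A library 2. The fit without libraries 2 and 3 of ∆GAG-BG and control vector gave -0.44 (adjusted p = 0.371 by edgeR) against ∆GAG-BG and -0.60 (adjusted p = 1 by edgeR) against control vector. TLN1, the abundant talin, was at 651 to 824 CPM over the 12 libraries. ITGB1BP1, which encodes an inhibitor of talin binding to ITGB1, and SHARPIN, which encodes an integrin inactivator, were not past the unadjusted threshold in any comparison (lowest unadjusted p = 0.0783 and 0.13 by edgeR).

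In the adhesion complex, TNS1, a tensin that binds the tails of beta subunits, was 116, 143 and 116 CPM in S534A and 98.8, 104 and 110 CPM in ∆GAG-BG. S534A was higher by a log2 fold change of 0.26 (SE 0.092, unadjusted p = 0.0144 and adjusted p = 0.89 by edgeR), without overlap, and 0.23 higher than control vector (unadjusted p = 0.0288 by edgeR). Without S534A library 2 these TNS1 values were 0.15 (unadjusted p = 0.0469 by edgeR) and 0.12 (unadjusted p = 0.124 by edgeR), and the calls were lost in 3 and 7 of 16 alternatives. The fit without libraries 2 and 3 of ∆GAG-BG and control vector gave 0.34 (unadjusted p = 0.0665 by edgeR) and 0.15 (unadjusted p = 0.351 by edgeR). VASP, an actin regulator, was lower in S534A (157 to 170 CPM) than in ∆GAG-BG (178 to 199 CPM) by -0.17 (unadjusted p = 0.0487 by edgeR), a call lost in 13 of 16 alternatives. VASP was at -0.28 (unadjusted p = 0.0604 by edgeR) without libraries 2 and 3 of ∆GAG-BG and control vector, and at -0.11 without ∆GAG-BG library 1. ZYX, which encodes zyxin, was at 0.22 in S545A against S534A (unadjusted p = 0.0569 by edgeR).

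ITGAE, an alpha subunit best known from intraepithelial lymphocytes, was the single other integrin gene at an unadjusted p under 0.05. It was 12.5, 14.3 and 11.4 CPM in S534A and 10.9, 9.15 and 8.94 CPM in S545A, without overlap. The log2 fold change of S545A against S534A was -0.40 (SE 0.17, unadjusted p = 0.0327 and adjusted p = 0.702 by edgeR), and the call was lost in 6 of 16 alternatives. ITGAE shares 427 exon bases (6.41%) with GSG2 on the opposite strand, a gene with 211 to 514 counts per library, and whether counting used the strand is not stated.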

How the data were processed

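Libraries were made with the NEBNext Ultra II Directional kit and read as 150-base pairs. The values used are the raw counts per gene that the authors deposited in a single table. They named FastQC, Trim Galore 0.4.5 and featureCounts. The submitters' processing notes add STAR 2.4, SAMtools 1.2 and the mouse build mm10 (GRCm38), while the table lists human genes, and 33647 of the 36113 symbols also found in GENCODE release 29 had the same span there (GRCh38).

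Genes passing filterByExpr (minimum count 10) were normalized by TMM and fitted in edgeR 4.0.16 under R 4.3.3 (robust quasi-likelihood, 8 residual degrees of freedom), after tests on simulated data. Standard errors were derived from the log2 fold change and its F statistic. An exact two-sided permutation test of 3 against 3 cannot go below 0.1. RPKM used the exon length in the deposited table.

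All 10 members are given in every library. Fold changes are given for members at an unadjusted p under 0.05 or, failing that, the 2 with the smallest p in a comparison, and for at most 3 genes of each list, by smallest p. Some genes first placed on the lists are not reported here and are in no count. Other values of ITGB5, ITGA2, ITGA5, ITGB1 and TLN1 were added after they were seen. The members and lists were chosen with earlier results of these data known. In S545A and control vector, libraries of the same number deviated together at all 3 numbers (correlations of 0.48 to 0.732). No other comparison had this at all 3 numbers, so this was the ground for treating them as pairs. Alternatives were DESeq2 1.42.0, limma-voom (limma 3.58.1), RLE factors, library size only, no filter, at least 10 counts in every library, only the 2 groups compared, the replicate block, each replicate left out, the close libraries 2 and 3 of each group but S534A summed, and libraries 2 and 3 of ∆GAG-BG and control vector left out.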

Additional observations from a re-analysis of the deposited data

How the results depend on the processing

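No alternative gave a member an adjusted p under 0.05. The number of members at an unadjusted p under 0.05 in S534A against ∆GAG-BG (1, ITGB3) was 0 with no filter on low counts, with only the 2 groups compared and with the close libraries 2 and 3 summed in each group but S534A, and 0 to 3 with 1 replicate left out (0 without ∆GAG-BG library 3, and 3 without S534A library 3: ITGB3, ITGB4 and ITGB5). With libraries 2 and 3 of ∆GAG-BG and control vector left out it stayed at 1, but the member was ITGA3, and ∆GAG-BG against control vector went from 0 to 1, also ITGA3; this leaves each of these groups with 1 library, assumed to vary like the others. Leaving out 1 replicate gave 0 to 1 in S545A against ∆GAG-BG (ITGA3, without ∆GAG-BG library 1), 0 to 1 in S545A against control vector (ITGB4, without S545A library 1), 0 to 2 in S545A against S534A (ITGB4 and ITGB5 without S534A library 3, ITGA2 and ITGB4 without S545A library 1) and 0 to 2 in the test for any difference (ITGB3 and ITGB4 without S534A library 3, and 1, ITGB4, without S545A library 1). Signs turned with libraries 2 and 3 of ∆GAG-BG and control vector left out for ITGB8 in ∆GAG-BG against control vector (-0.61) and ITGA6 in S534A against control vector (-0.081). In that fit ∆GAG-BG rested on library 1, which had the highest ITGA3 (1995 CPM) and HSPA5 (11852 CPM) levels of the 12 libraries. The causes were not tested, and the fits with libraries left out or summed also hold fewer libraries.

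With the replicate number as a block, 1 member (ITGB4) was at an unadjusted p under 0.05 in S545A against S534A, and the count changed in no other comparison. Outside S545A against control vector, same-numbered libraries correlated at -0.312 to 0.544, and the numbers were not taken as pairs. S534A libraries 1 and 3 correlated at 0.233 to 0.544 with those of control vector and S545A, but library 2 at -0.229 and -0.312. Between ∆GAG-BG and control vector the correlations were -0.16 to -0.101. With 3 libraries per group, effects in ITGB4 and ITGB8 are limited by their counts, 4 to 64 per library.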
